A study of Mus musculus with 16 samples.

Results

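The RNA interference and microRNA machinery was described through 10 genes of mouse 2-cell embryos: Dicer1, Ago1, Ago2, Ago3, Ago4, Tarbp2, Prkra, Drosha, Dgcr8 and Xpo5. They were taken from the gene tables by Ensembl identifier, through the gene symbols of the GENCODE mouse annotation. All 10 symbols matched 1 identifier each, of 49585 listed in all, and all 10 had a mean normalized count above 0. None of the 10 was called, at an adjusted p under 0.05, in any of the 3 comparisons.

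This machinery turns double-stranded RNA into short guide RNAs that silence matching transcripts. In the nucleus Drosha and its partner Dgcr8 cut hairpins out of primary microRNA transcripts, and Xpo5 carries the hairpins to the cytoplasm. There Dicer1, with the double-stranded RNA binding proteins Tarbp2 and Prkra, cuts hairpins or long double-stranded RNA to short duplexes, and an Argonaute protein takes up 1 strand as its guide. In mouse oocytes the small interfering RNA branch is known to be needed, whereas microRNA activity there is weak and oocytes without Dgcr8 can mature. Injected long double-stranded RNA lowers its target through Dicer1 and Ago2, the machinery measured here.

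The groups were 6 libraries of embryos whose zygotes had received double-stranded RNA against Suv39h2 (knockdown), 6 given double-stranded RNA against LacZ in the same way (LacZ control) and 4 of non-injected embryos. LacZ is a bacterial gene with no counterpart in the mouse, so both injected groups received double-stranded RNA and the non-injected group received none. Every embryo had a DBA father and a hybrid mother from C57BL/6J and CBA/H, and was cultured in KSOM. Polyadenylated RNA was sequenced by Smart-seq2, a full-length protocol without strand information, from pools of 5 embryos by the design text, although the extraction label says a single embryo. A treatment label speaks of Suv39h1 messenger RNA, which none of the 3 injection labels names. The embryos' age is given only as the 2-cell stage, and no label says which libraries shared a collection day.

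The tables hold 1 mean over all 16 libraries and 1 fold change per comparison, so neither the depth nor the value of any library is known, and no spread between libraries can be shown. Standard errors and p-values are the authors', from DESeq2, and rest on the spread between libraries, which no label ties to separate litters. RUVseq factors, known by name only, also enter them, and the standard errors are those of shrunken fold changes. They are therefore not the plain spread between libraries. The targeted gene followed its label: Suv39h2 stood at a log2 fold change of -1.95 ± 0.28 (standard error) for knockdown over LacZ control in the authors' deposited table (DESeq2, adjusted p = 4.72e-08). The 5 markers of the 2-cell stage and the 5 of the oocyte and early embryo had mean counts of 352 to 2987 and of 205 to 8077. Of 7 cumulus and granulosa cell markers 5 were under 1, with Inhba at 0 and Cyp19a1 highest at 16.1, and the 3 sperm markers lay between 0.896 and 7.78. In bulk RNA, fewer cells of a type and less RNA per cell cannot be told apart.

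The nuclear enzyme Drosha and Dicer1 had the highest levels of the 10 per kilobase of exon, whereas Prkra, Ago1 and Ago4 were scarce. The mean normalized count, a signal in arbitrary units, was divided by the summed length of all annotated exons so that genes could be set side by side. Drosha, the nuclear endonuclease, had the highest level of the 10, at 147 per kilobase of exon, above 87.5% of the 19060 protein-coding genes with a mean count over 0. Dicer1, the cytoplasmic endonuclease, followed at 54.4 per kilobase, above 74.8% of those genes. That set of coding genes reaches down to barely detected ones, such as the granulosa cell marker Fshr at a mean count of 0.0454. Tarbp2, Ago3 and Dgcr8 stood close to Dicer1, above 71.4%, 69.2% and 69.2% of the set. Dicer1 lies on chromosome 12 of GRCm38, from 104687742 to 104751952, and Drosha on chromosome 15, from 12824815 to 12935291. The tables count each gene as a whole, so the short Dicer1 form that mouse oocytes make from an intronic repeat promoter was not separated from the full-length form.

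Of the Dicer1 partners, Tarbp2 (chromosome 15, 102518192 to 102523676) was at 43.4 per kilobase and Prkra (chromosome 2, 76629898 to 76648015) at 2.76. Tarbp2 was thus 15.7 times as high as Prkra per kilobase of exon, a ratio of 37.4 per longest coding transcript and 30.3 per longest coding sequence, and both are double-stranded RNA binding cofactors of Dicer1. The mean normalized count behind the Prkra value was only 5.60, against 198 for Tarbp2.

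The Argonautes split into a higher and a lower pair. Ago3 stood at 37.6 and Ago2, the Argonaute known for cutting its target RNA, at 24.3 per kilobase of exon. Ago1 and Ago4, which guide silencing without target cutting, stood at 3.32 and 2.37 per kilobase. Ago3 was 11.3 times as high as Ago1 and 15.8 times as high as Ago4, although the 3 genes lie side by side on the minus strand of chromosome 4. Per longest coding sequence these ratios were 23.0 and 37.8. Ago3 (126331704 to 126429556) is separated from Ago1 (126435012 to 126468583) by 5455 bases, and Ago1 from Ago4 (126489541 to 126533472) by 20957 bases. Ago2 lies apart from them, on chromosome 15 from 73095844 to 73184935.

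In the nuclear step, Dgcr8, the RNA-binding partner of Drosha, stood at 37.5 per kilobase, and Drosha was 3.92 times as high per kilobase of exon but 1.70 times per longest coding sequence. Xpo5, the export receptor, stood at 6.93 per kilobase (chromosome 17, 46202782 to 46243598). The order from high to low was Drosha, Dicer1, Tarbp2, Ago3, Dgcr8, Ago2, Xpo5, Ago1, Prkra and Ago4. No spread over libraries was available to this comparison, so whether neighbours in this order differ could not be tested. The choice of length mattered within the higher 6 genes: per kilobase of the longest coding sequence Ago3 came first, at 241, with Drosha at 212, Tarbp2 at 180, Dicer1 at 159, Ago2 at 132 and Dgcr8 at 124. Xpo5, Ago1, Prkra and Ago4 were the lowest 4 under each of the 3 lengths tried.

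**Figure D1:**
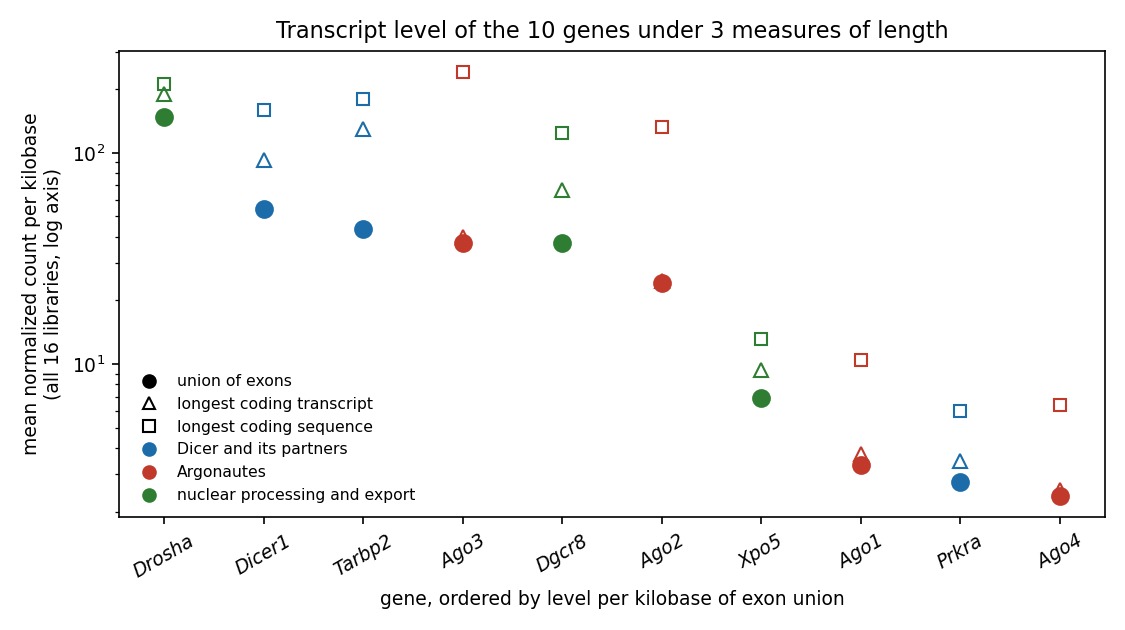
Mean normalized count per kilobase (log axis, 1 mean over all 16 libraries, no error available) for each of the 10 genes, with the length taken as the union of exons (filled circles), the longest coding transcript (triangles) or the longest coding sequence (squares). Under all 3 lengths Xpo5, Ago1, Prkra and Ago4 lie below the other 6 genes, and Drosha has the highest level per kilobase of exon union, 147.

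The Dgcr8 messenger RNA itself carries hairpins of the kind its protein binds, which are shown because they are the substrate side of the same gene. Dgcr8 lies on the minus strand of chromosome 16, from 18253948 to 18289246. The hairpin of Mir1306 (chr16:18284239-18284317, minus strand, RefSeq, build GRCm38.p6) lies inside the coding sequence of 2 Dgcr8 transcripts. In its line, capitals mark the 5′ and 3′ mature microRNAs. In the lines of mature microRNAs, capitals mark the seed, bases 2 to 8. The lower pair of mature microRNAs comes from another hairpin, in the untranslated stretch of the same gene (chr16:18284562-18284583 and chr16:18284602-18284623, minus strand).
Mir1306 hairpin: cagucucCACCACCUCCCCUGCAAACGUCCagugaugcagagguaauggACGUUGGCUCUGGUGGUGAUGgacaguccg
mmu-miR-1306-5p: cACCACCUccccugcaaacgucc
mmu-miR-1306-3p: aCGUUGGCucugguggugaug
mmu-miR-3618-5p: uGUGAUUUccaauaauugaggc
mmu-miR-3618-3p: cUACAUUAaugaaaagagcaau
The 4 mature sequences have 4 different seeds. The separate entries for both hairpin genes, Mir1306 and Gm24572, are listed at a mean count of 0. Both overlap Dgcr8 exons on the same strand, and how reads shared by genes were counted is not known. The 0 therefore does not show that reads over the hairpins were absent. Cutting of the Dgcr8 transcript by Drosha is known as a feedback on the enzyme pair, and polyadenylated read counts per gene do not measure it. Of the Dgcr8 exon length, 17.1% is shared with other annotated genes, among them Trmt2a on the opposite strand, and without strand the reads of that part cannot be assigned. Ago2 shares 1.56% of its exon length with Chrac1 on the opposite strand and Drosha 1.21% with Gm47288 on its own strand, and the other 7 genes share none.

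Between knockdown and LacZ control, where both groups had received double-stranded RNA, no gene of the machinery was called, and most estimates lay close to 0. Of the 10 genes 9 had an adjusted p, and 0 of these 9 were called in the authors' deposited table, against 0.899% of all 15572 genes with an adjusted p. At an unadjusted p under 0.05 the DESeq2 test gave 0 of 10, against 8.13% of all genes with a p-value, and the adjusted p ran from 0.645 to 0.995. The fold changes were below 0 for 6 genes and above 0 for 4, with a median of -0.13 on the log2 scale, beside 0.02 over all genes.

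Dicer1 stood at -0.22 ± 0.22 (log2, standard error) for knockdown over LacZ control in the authors' deposited table, 85.9% of the LacZ control level (DESeq2, adjusted p = 0.686). Its 95% interval reached from 0.641 to 1.15 of that level. Drosha, the most precisely measured of the 10, stood at -0.14 ± 0.16 in the authors' deposited table, with an interval of 0.727 to 1.13 of the LacZ control level. For these enzymes a loss to below 0.6 of the control level lies outside the interval. Ago2 was at -0.14 ± 0.27 and Ago3 at -0.13 ± 0.21 in the authors' deposited table. The intervals of Ago2 and Ago3 reached from 0.630 to 1.31 and from 0.691 to 1.21 of the LacZ control level. Dgcr8 stood at -0.15 ± 0.24 and Tarbp2 at 0.17 ± 0.25 in the authors' deposited table. The intervals of these 4 genes all include no difference.

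The scarce genes were known less well. Ago1 stood at -0.42 ± 0.38, Ago4 at 0.01 ± 0.37 and Xpo5 at 0.14 ± 0.32 in the authors' deposited table. Their intervals reached from 0.444 to 1.26 of the LacZ control level for Ago1, 0.604 to 1.67 for Ago4 and 0.713 to 1.69 for Xpo5. For scarce genes the shrinkage also narrows the interval: the granulosa cell marker Fshr, at a mean count of 0.0454, had a standard error of only 0.17 in the authors' deposited table. The intervals of Prkra, Ago1, Ago4 and Xpo5 therefore set no firm limit on a change. Prkra stood at 0.55 ± 0.36 in the authors' deposited table, where its adjusted p is empty (unadjusted p = 0.227), as it is for every gene with a mean count under 7.93 in this comparison. Differences this small could not have been called: with the smallest test statistic that was called, about 3.52, and each gene's own standard error, a fall of 40.8% was needed for Dicer1, 32.6% for Drosha, 48.0% for Ago2 and 60.7% for Ago1. These limits are approximate, since the deposited fold changes are shrunken and the statistic is not.

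**Figure D2:**
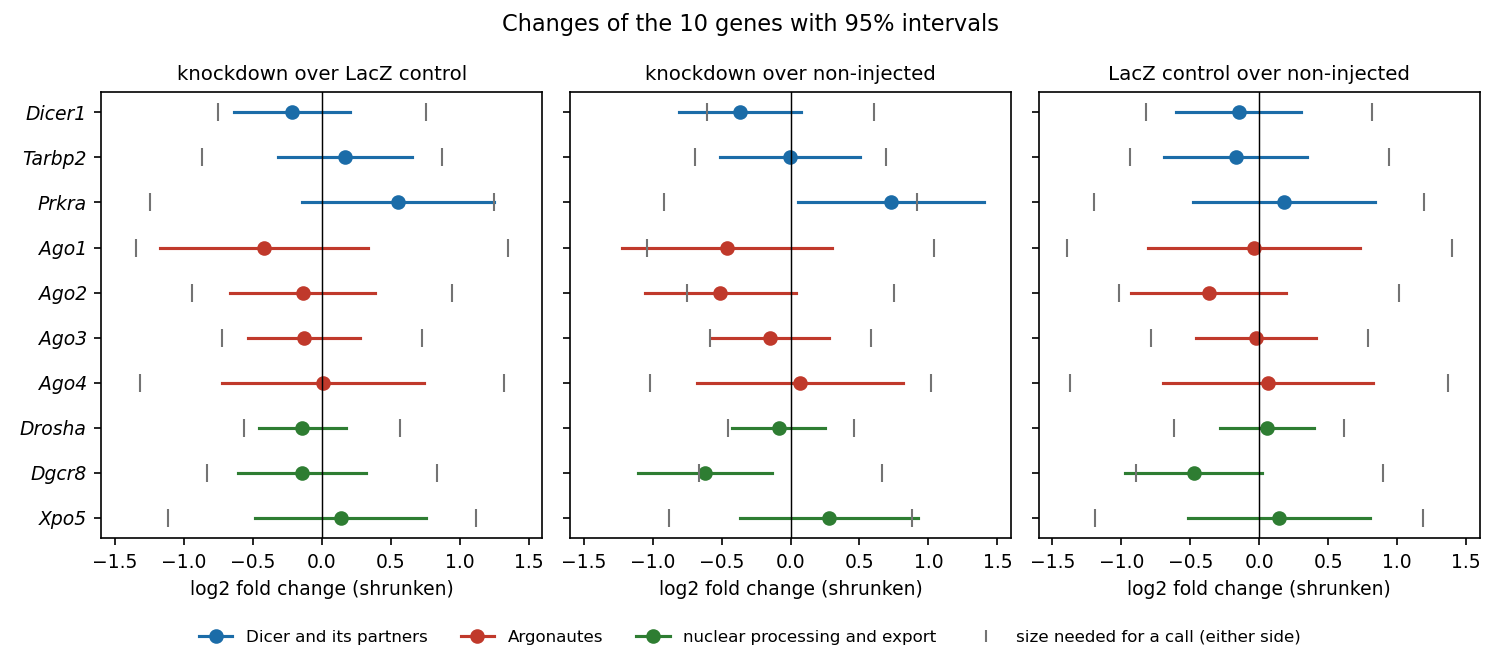
Log2 fold change (shrunken, points) and 95% interval (bars, 1.96 standard errors) of each gene in the 3 comparisons, coloured by role, with grey ticks at the size that a call would have needed. The ticks of Prkra do not apply in knockdown over LacZ control and knockdown over non-injected, where it had no adjusted p and could not be called. In knockdown over LacZ control all 10 intervals cross 0, whereas in knockdown over non-injected the bars of Dgcr8 (-0.62) and Prkra (0.73) do not.

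Between knockdown and non-injected embryos, which differ both in injection and in the target, the machinery again had no call, with Dgcr8 the nearest. The authors' deposited table called 0 of the 9 genes with an adjusted p, against 15.2% of all 14948 genes. At an unadjusted p under 0.05 the DESeq2 test gave 2 of 10, Dgcr8 lower and Prkra higher, against 14.8% of all genes with a p-value. Over all genes 7.41% were called higher and 7.76% lower. Of the 10 markers of the 2-cell stage, the oocyte and the early embryo, 4 were called in this comparison, all higher: Tdpoz4 (log2 1.02), Zscan4c (0.95), Bmp15 (0.87) and Gdf9 (0.76) in the authors' deposited table (DESeq2, adjusted p = 0.00136, 0.0340, 0.00752 and 0.0113). At an unadjusted p under 0.05 DESeq2 gave 6 of the 10 markers, 5 higher and 1 lower, Usp17lb at -0.69 ± 0.28 in the authors' deposited table. For knockdown over LacZ control DESeq2 called 0 of these 10, beside 0.899% of all genes. At an unadjusted p under 0.05 there were 0, beside 8.13%. Between LacZ control and non-injected embryos DESeq2 likewise called 0 of the 10 markers, beside 0.792% of all genes. The unadjusted p of 5, each higher, lay under 0.05 there, beside 6.55% of all genes. The part of these markers in the values against non-injected embryos was not tested. Of the 10 genes of the machinery 7 were below 0 and 3 above, with a median of -0.12 on the log2 scale, beside 0.03 over all genes.

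Dgcr8 stood at -0.62 ± 0.25 for knockdown over non-injected in the authors' deposited table, 65.0% of the non-injected level, with an interval of 0.464 to 0.910 (DESeq2, adjusted p = 0.0844). A call would have needed a log2 difference of about 0.66. Its partner Drosha stood at -0.09 ± 0.17 in the authors' deposited table, 94.2% of the non-injected level, with an interval of 0.747 to 1.19. The difference between the pair's fold changes was not tested, since the covariance of the estimates is not in the tables. Xpo5 stood at 0.28 ± 0.33 in the authors' deposited table (DESeq2, adjusted p = 0.550).

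Ago2 stood at -0.51 ± 0.28 for knockdown over non-injected in the authors' deposited table, 70.3% of the non-injected level (DESeq2, adjusted p = 0.216), with an interval of 0.480 to 1.03. Ago1 stood at -0.46 ± 0.39, Ago3 at -0.15 ± 0.22 and Ago4 at 0.07 ± 0.38 in the authors' deposited table. The 4 Argonaute intervals all include no difference and overlap one another. Dicer1 stood at -0.37 ± 0.23 in the authors' deposited table (DESeq2, adjusted p = 0.289), with an interval of 0.569 to 1.05 of the non-injected level. Tarbp2 was at -0.00 ± 0.26 in the authors' deposited table, an interval of 0.702 to 1.42.

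Prkra had the largest positive estimate, 0.73 ± 0.34 for knockdown over non-injected in the authors' deposited table, 1.66 times the non-injected level with an interval of 1.04 to 2.65, which is subject to the same shrinkage. Its unadjusted p was 0.0285 by DESeq2, and the authors' deposited table leaves its adjusted p empty. Adjusted over every gene with a p-value it was 0.237. The value rests on a mean normalized count of 5.60.

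**Figure D3:**
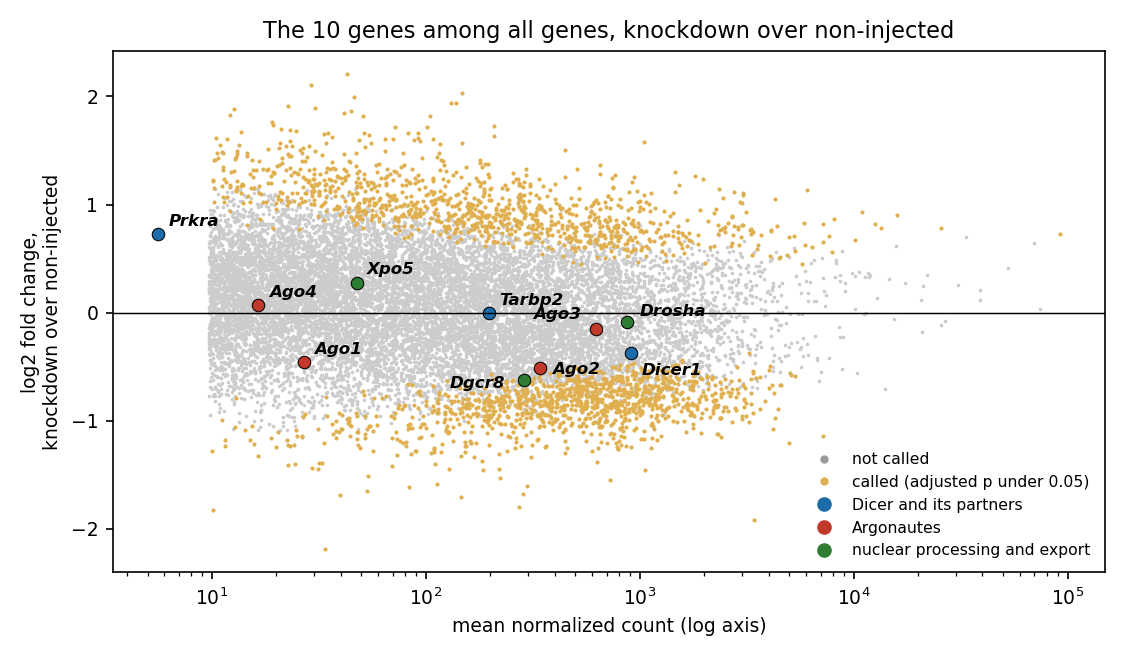
Log2 fold change of knockdown over non-injected against mean normalized count (log axis) for the 14948 genes with an adjusted p (grey, or orange where called) and the 10 genes of the machinery, of which Prkra has no adjusted p. Dgcr8 (-0.62) and Ago2 (-0.51) have the lowest values of the 10, and Prkra (0.73) lies at a lower mean count than any gene with an adjusted p.

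Between LacZ control and non-injected embryos, the comparison that shows injection with double-stranded RNA that has no mouse target, no gene of the machinery was called either. All 10 genes had an adjusted p and 0 of 10 were called in the authors' deposited table, against 0.792% of all 29288 genes. At an unadjusted p under 0.05 DESeq2 gave 0 of 10, against 6.55% of all genes with a p-value. Estimates were below 0 for 6 genes and above 0 for 4, with a median of -0.03 on the log2 scale, beside 0.00 over all genes.

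The lowest estimate was again that of Dgcr8, -0.48 ± 0.25 for LacZ control over non-injected in the authors' deposited table, 71.9% of the non-injected level (DESeq2, adjusted p = 0.718). Ago2 stood at -0.37 ± 0.29 and Dicer1 at -0.15 ± 0.23 in the authors' deposited table. Their intervals reached from 0.525 to 1.14 and from 0.659 to 1.23 of the non-injected level. Tarbp2 stood at -0.17 ± 0.26, Prkra at 0.18 ± 0.34 and Xpo5 at 0.14 ± 0.34 in the authors' deposited table. Drosha stood at 0.06 ± 0.17 there, with an interval of 0.821 to 1.32 of the non-injected level. Ago1 was at -0.04 ± 0.39, Ago3 at -0.02 ± 0.22 and Ago4 at 0.06 ± 0.39, again from the authors' deposited table. The comparisons share libraries, and 1 of the 3 fold changes of a gene follows from the other pair by addition, so a gene's like values in them are not separate evidence.

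Around the core machinery, 103 further genes in 6 lists were counted, and 13 of the 85 with an adjusted p were called between knockdown and non-injected embryos. That is 15.3%, beside 15.2% over all genes, with 4 higher and 9 lower. Adjusted over genes with a mean count of at least 100, 15 of 71 were called, beside 25.8% of all such genes. Centred on the median of genes counted at least 100, 10 of 85 were called, beside 16.1% over all genes, 5 higher and 5 lower. The calls of Tsn, Safb and Piwil2 were among those that ended with that centring and with adjustment over every gene, and centring added a call of Pan3, a deadenylase subunit, as higher. Between knockdown and LacZ control 1 of 86 was called, 1.16% beside 0.899% over all genes. There 12 of the 103 were at an unadjusted p under 0.05, beside 8.13% of all genes. For LacZ control over non-injected DESeq2 called 0 of 103, beside 0.792% over all genes, and 8 were at an unadjusted p under 0.05, beside 6.55%. With the adjusted p-values as deposited, the shares of calls over the 6 lists together were thus close to those over all genes. The 2 genes with the smallest p-values for LacZ control over non-injected were taken from each of the first 4 lists described here. Their log2 fold changes were -0.48 for Fkbp4, 0.39 for Pan3, -0.27 for Ddx5, 0.33 for Hnrnpa1, 0.85 for Lin28a, -0.52 for Xrn2, 0.73 for Piwil1 and -0.45 for Pnldc1 in the authors' deposited table.

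Among 22 partners and effectors of the silencing complex, 3 were called lower in knockdown than in non-injected embryos and none higher, 13.6% beside 15.2% over all genes, with a list median of 0.01. With centring 1 was higher, Pan3, and 2 were lower, 3 of 22 beside 16.1% of all genes. Pabpc1, the cytoplasmic poly(A)-binding protein that the silencing complex meets on its targets, fell by 0.85 ± 0.22 (log2) in the authors' deposited table (DESeq2, adjusted p = 0.00280). It was also the 1 call between knockdown and LacZ control, where it fell by 0.76 ± 0.21 in the authors' deposited table (DESeq2, adjusted p = 0.0364). That call was lost when p-values were adjusted over every gene or when fold changes were centred on the median of well counted genes. Hsp90ab1, a chaperone that holds Argonautes open for loading, fell by 0.74 ± 0.22, and Tsn, a subunit of a nuclease that clears the passenger strand in flies and human cells, by 0.54 ± 0.20 in the authors' deposited table (DESeq2, adjusted p = 0.0161 and 0.0385). The GW182 proteins Tnrc6a, Tnrc6b and Tnrc6c, which bind Argonautes and recruit deadenylases, had log2 fold changes of -0.12, 0.39 and 0.40 in the authors' deposited table, none called.

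Of 17 nuclear factors that work with Drosha and Dgcr8 or on the same transcripts, 2 were called lower in knockdown than in non-injected embryos and none higher, 11.8% beside 15.2% over all genes, with a median of -0.25. Ncbp1, the large subunit of the nuclear cap-binding complex, fell by 0.73 ± 0.23 and Safb, a nuclear RNA-binding scaffold protein, by 0.63 ± 0.21 in the authors' deposited table (DESeq2, adjusted p = 0.0202 and 0.0265). Ncbp1 shares 4.70% of its exon length with Tstd2 and Xpa on the opposite strand. Between knockdown and LacZ control DESeq2 called 0 of the 17, beside 0.899% of all genes. At an unadjusted p under 0.05 there were 6, all lower, beside 8.13% of all genes in either direction. Of the 33028 genes with a p-value, scarce ones included, 1357 were lower at that p. The list median was -0.36, beside -0.08 for genes counted at least 100, as all 17 were. The smallest p-values there were those of Hnrnpa1 (-0.55 ± 0.22) and the small cap-binding subunit Ncbp2 (-0.54 ± 0.21) in the authors' deposited table.

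Among 16 genes for tailing, trimming and let-7 control, 1 was called higher and 1 lower in knockdown than in non-injected embryos, 12.5% beside 15.2% over all genes, with a median of 0.01. Lin28a, which binds let-7 precursors and blocks their processing by Dicer, rose by 1.08 ± 0.29 in the authors' deposited table, 2.12 times the non-injected level (DESeq2, adjusted p = 0.00424). Xrn2, a nuclear exonuclease, fell by 0.81 ± 0.23 in the authors' deposited table (DESeq2, adjusted p = 0.0102). For LacZ control over non-injected Lin28a stood at 0.85 ± 0.30 in the authors' deposited table and was not called (DESeq2, adjusted p = 0.217). Between knockdown and LacZ control DESeq2 called 0 of the 16, with 0 at an unadjusted p under 0.05, beside 0.899% and 8.13% of all genes. The smallest p-values there belonged to Tent4b (-0.38 ± 0.23) and Tut7 (-0.30 ± 0.20) in the authors' deposited table. Lin28a shares 5.86% of its exon length with Gm13061 on the opposite strand.

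The piRNA pathway, the germline branch that uses Piwi proteins in place of Argonautes and needs no Dicer, had 3 calls among 17 genes with an adjusted p, of 20 listed, in knockdown over non-injected, 17.6% beside 15.2% over all genes. Piwil1, a Piwi protein best known from the mouse testis, rose by 1.35 ± 0.29 in the authors' deposited table, 2.55 times the non-injected level (DESeq2, adjusted p = 0.000366). Pnldc1, the enzyme that trims piRNA ends, fell by 1.01 ± 0.21 and the Piwi protein Piwil2 fell by 0.62 ± 0.23 in the authors' deposited table (DESeq2, adjusted p = 0.000261 and 0.0477). The call of Piwil2 was also lost with p taken from the fold change over its standard error, and the list median was 0.01. Between knockdown and LacZ control DESeq2 called 0 of 18, with 2 of 20 at an unadjusted p under 0.05, beside 0.899% and 8.13% of all genes. These 2 were Piwil1 (0.62 ± 0.27) and Pnldc1 (-0.57 ± 0.20) in the authors' deposited table. Pnldc1 shares 5.41% of its exon length with AL589878.1 on the opposite strand.

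Of 19 other double-stranded RNA binding proteins 12 had an adjusted p, and 3 of these were called between knockdown and non-injected embryos, 25% beside 15.2% over all genes, around a list median of -0.07. The count was 2 of 12 with centring, beside 16.1% of all genes, and 2 of 19 with adjustment over every gene, beside 5.31%. Ddx58, the cytoplasmic sensor also called RIG-I, rose by 1.15 ± 0.28, and Stau2, which carries structured messenger RNA, by 0.80 ± 0.26 in the authors' deposited table (DESeq2, adjusted p = 0.00180 and 0.0231). For LacZ control over non-injected Ddx58 stood at 0.58 ± 0.28 and Stau2 at 0.63 ± 0.27 in the authors' deposited table. Neither was called (DESeq2, adjusted p = 0.602 and 0.447). Between knockdown and LacZ control DESeq2 called 0 of the 12, with 1 of 19 at an unadjusted p under 0.05, beside 0.899% and 8.13% of all genes. That 1 was Ddx58, at 0.57 ± 0.26 in the authors' deposited table, with Dhx9 next at -0.38 ± 0.25. The kinase Eif2ak2 and the sensor Ifih1, which answer long double-stranded RNA in other cells, had mean counts of 2.87 and 1.06.

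**Figure D4:**
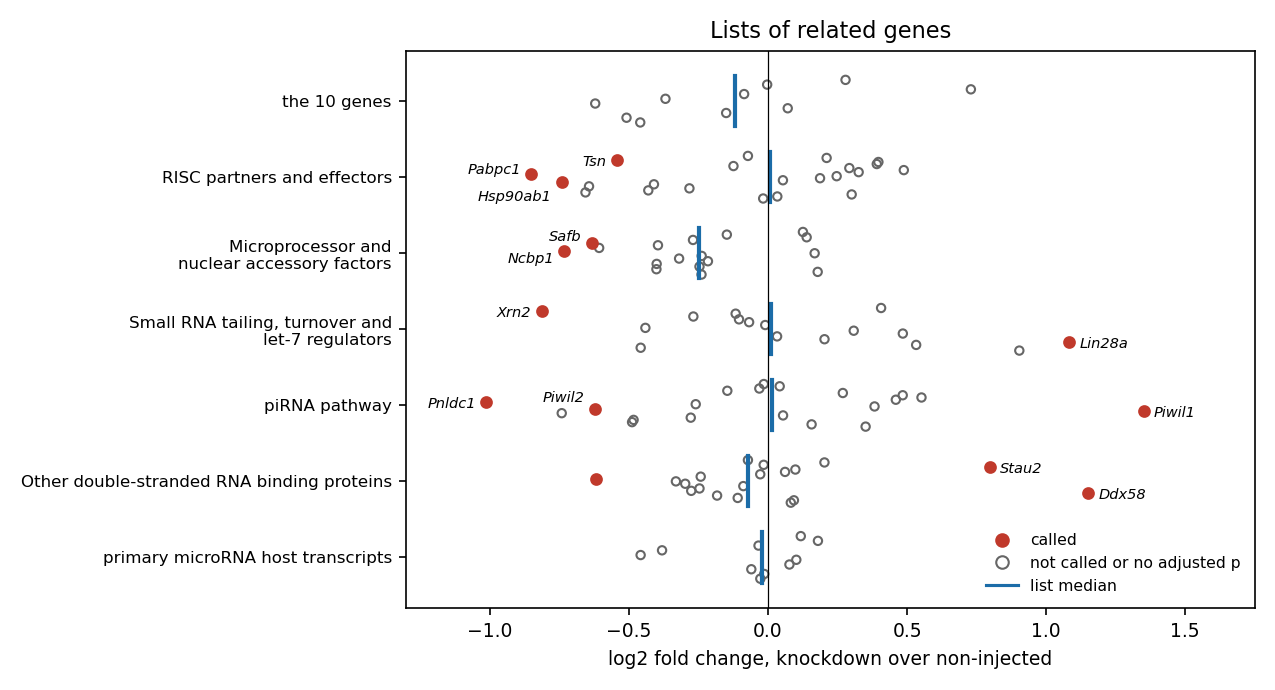
Log2 fold change of knockdown over non-injected for each of the 10 genes and of the 6 lists of related genes, with called genes filled (12 of the 13 named), other genes open and the list median as a blue bar. Called genes lie on both sides of 0, from Pnldc1 (-1.01) to Piwil1 (1.35), and the 10 genes of the machinery have none.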

How the data were processed

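Per the submitters' processing notes the authors used STAR 2.5.2b on GRCm38.p5, SAMtools, HTSeq 0.9.1 for counting and, for the tests, DESeq2 1.18.1. That RUVseq factors were used and fold changes shrunken is known from the table names only, and the sources used here give neither the annotation release nor how reads shared by genes were treated. Per the file headers, each deposited gene table gives a mean normalized count (a signal divided by size factors), a shrunken log2 fold change with its standard error, a Wald statistic (a score), a p-value and its adjusted form. The deposited repeat tables were not used here.

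Identifiers were matched without version to GENCODE vM21 (GRCm38), which named 49326 of 49585 (99.5%). The direction, first-named over second-named group, was checked on Suv39h2. A call is an adjusted p under 0.05. Computed here were 95% intervals from the standard errors, levels per kilobase, exon overlaps and counts per list, in Python 3.11.15 with pandas 2.3.3 and SciPy 1.17.1. The Benjamini-Hochberg step was tested on simulated data. The deposited adjusted p-values were recovered to within 1.84e-05. With 0 columns of single libraries, depth is unknown and no refit was possible. The 10 genes and all lists were chosen with earlier results of these data known. All 10 genes are named. Of each list the called genes are named, up to 6, or else the 2 with the smallest p, except for 1 gene that is not reported here. Tnrc6a, Tnrc6b, Tnrc6c, Eif2ak2, Ifih1 and Fshr were named after their values were seen.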

Additional observations from a re-analysis of the deposited data

How the results depend on the processing

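The count of 0 called genes held in all 3 comparisons with p-values adjusted over every gene, which tested all 10. It held over genes with a mean count of at least 10 or 100, which kept 9 and 6 of the 10. It also held with p taken from the fold change over its standard error. The same was true with fold changes centred on the median of genes counted at least 100. For knockdown over non-injected the shares of all genes called were 5.31%, 15.4%, 25.8%, 15.7% and 16.1% in that order. In the other comparisons these shares lay between 0.0683% and 2.08%. At an adjusted p under 0.1 the count of called genes among the 10 became 1 of 9 for knockdown over non-injected, beside 21.7% of all genes. That gene was Dgcr8, whose adjusted p was 0.0844 (range 0.0598 to 0.170 over the other alternatives). Centring turned Tarbp2 in knockdown over non-injected to 0.082 (adjusted p = 0.864). The shift was -0.08, -0.08 and 0.00 on the log2 scale for knockdown over LacZ control, knockdown over non-injected and LacZ control over non-injected. Among related genes, the 1 call between knockdown and LacZ control became 0 with adjustment over every gene and 0 with centring. The shares over all genes there were 0.363% and 1.26%. Of the 13 between knockdown and non-injected, counts under the alternatives ran from 9 to 16. With adjustment over every gene it was 9 of 103, beside 5.31% of all genes. At an adjusted p under 0.1 it was 16 of 85, beside 21.7%, and at mean counts of at least 100 it was 15 of 71, beside 25.8%. With centring 10 of 85 were called, beside 16.1% of all genes, 5 higher and 5 lower against 4 and 9. Over all genes, calls for LacZ control over non-injected were 232 as deposited, 62 and 73 at mean counts of at least 10 and 100, and 20 with p from the fold change over its standard error or with centring. The causes were not tested. Of the 9 neighbouring pairs in the order of levels, 7 kept their order per longest coding transcript and 5 per longest coding sequence. No paired analysis was possible because the tables hold no values per library, and for the same reason no library could be left out. Prkra, Ago4, Ago1 and Xpo5 had the lowest mean counts of the 10, 5.60 to 47.5, but with the depth per library unknown, what it limits could not be measured.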

Other observations

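Most genes annotated as microRNAs had few polyadenylated reads, although the highest microRNA entry had a mean count of 1280. So did most of the 10 host transcripts whose symbols start with Mir and end with hg. Hosts with other symbols, such as Dgcr8, were not in that list. Other substrates of the machinery, such as long double-stranded RNA, were not counted. Of 2202 genes annotated as microRNAs 518 had a mean count above 0 and 27 a mean count of at least 10, of which 7 carry a Mir symbol. DESeq2 called 0 of these 27 in each comparison. At an unadjusted p under 0.05 there was 1 between knockdown and LacZ control, 4 between knockdown and non-injected embryos and 0 between LacZ control and non-injected embryos, beside 8.13%, 14.8% and 6.55% of all genes, and 0.899%, 15.2% and 0.792% of all genes were called. The medians of these 27 were 0.08, 0.05 and 0.12 (log2) in that order. Of the 10 host transcripts chosen by symbol, 2 had a mean count of at least 10, Mir17hg at 90.4 and Mir22hg at 37.8. Mir17hg (chromosome 14, 115042879 to 115046727) stood at -0.59 ± 0.40 between knockdown and LacZ control in the authors' deposited table. With non-injected embryos as the base its values there were -0.46 ± 0.39 in knockdown and 0.13 ± 0.39 in LacZ control. Mir22hg (chromosome 11, 75461539 to 75466676) stood at -0.37 ± 0.38 between knockdown and LacZ control in the authors' deposited table, and against non-injected embryos at -0.38 ± 0.38 in knockdown and -0.01 ± 0.39 in LacZ control. Neither was called. The other 8 host transcripts had mean counts under 10, and Mir124a-1hg, with the second smallest p of the list between knockdown and LacZ control (0.161), had a mean count of 0.664. Between LacZ control and non-injected embryos the smallest p-values of the list were those of Mir142hg (0.244) and Mir99ahg (0.288).

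Mir17hg holds 11 mature microRNAs with 9 different seeds in RefSeq (GRCm38.p6, chromosome 14, plus strand). The main strands are shown with the seed, bases 2 to 8, in capitals, to show which mature sequences this host transcript holds and how they group by seed.
mmu-miR-17-5p: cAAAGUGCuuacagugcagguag
mmu-miR-20a-5p: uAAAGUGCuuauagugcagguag
mmu-miR-18a-5p: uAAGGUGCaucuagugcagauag
mmu-miR-19a-3p: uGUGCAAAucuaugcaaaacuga
mmu-miR-19b-3p: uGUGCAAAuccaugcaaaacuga
mmu-miR-92a-3p: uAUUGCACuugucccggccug
The first pair shares 1 seed and the pair of miR-19 members shares another. Counts of the host transcript do not give the level of these mature microRNAs, which carry no poly(A) tail.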
